A study of Mus musculus with 4 samples.

Results

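The nuclear genes for the subunits of the mitochondrial respiratory chain and of ATP synthase were followed in mouse embryonic stem cells that lose Oct4. They were taken by name from the spots on the arrays, as Nduf genes of complex I, Sdha to Sdhd of complex II, Uqcr genes and Cyc1 of complex III, Cycs for cytochrome c, Cox4 to Cox8 genes of complex IV and Atp5 genes of complex V. This gave 79 genes of 27962 gene names, on 108 of 43379 spots that were not controls, and they are called members below. Of the 79, 78 passed the filter on dim probes and were tested among 21590 genes: all 35 of complex I, all 4 of complex II, all 8 of complex III, Cycs, 14 of 15 of complex IV and all 16 of complex V. Complexes were assigned by name alone, so every Nduf gene, Ndufa4 among them, was counted in complex I. The rule does not take Cox4i1, Cox4i2 or Ndufab1, whose names differ from the pattern, nor the subunits encoded in mitochondrial DNA. Current RefSeq names differ for Atp5f1 (Atp5pb), Atp5s (Dmac2l) and Uqcr (Uqcr11), and the names on the array are kept here.

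The cells were ZHBTc4, an established mouse line in which doxycycline shuts off Oct4, the transcription factor that holds embryonic stem cells in the pluripotent state. All cells had been moved from irradiated embryonic fibroblast feeders to gelatin for 2 passages. One group received 2 µg doxycycline for 48 h (dox, 2 arrays) and the other received the same with TCP, which the labels do not spell out (dox_TCP, 2 arrays). On each array the treated RNA carried Cy5 and RNA of ZHBTc4 cells with no treatment named carried Cy3. This reference was counted as 1 control sample, with no separate control group to give its biological spread. Differences in Cy3 between arrays are part of the spread of the ratios. The dyes were never swapped, so a dye effect cannot be told apart from a difference against the reference. The labels call the arrays of a group biological replicates, and all results are for this single line.

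Oxidative phosphorylation passes electrons from NADH through complex I, or from succinate through complex II, to ubiquinone, then through complex III and cytochrome c to complex IV, which reduces oxygen. Complexes I, III and IV pump protons across the inner membrane, and complex V uses their return to make ATP. Most subunits are encoded in the nucleus, and pluripotent stem cells are known to draw much of their ATP from glycolysis and to shift towards respiration as they differentiate.

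Between 74.3% and 78.1% of spots were well above background in Cy5 and between 68.8% and 78.1% in Cy3. The members were bright: their median log2 level over both channels was 14.56 against 8.65 for all genes tested, and 3.36% of genes reached that level. Cox8c and Cox6a2 were dim, at mean levels of 7.53 and 7.55. No member spot was an outlier or saturated on any array. Pou5f1, which encodes Oct4, was -3.38 and -3.62 (log2 Cy5 over Cy3) on the dox arrays and -3.29 and -3.28 on the dox_TCP arrays, so it was low in the treated RNA on all 4. Of 10 pluripotent markers, 9 were called lower with dox and 7 with dox_TCP, where Klf2 was called higher (log2 1.06, limma adjusted p = 0.0307). Of 9 trophoblast markers tested, 0 were called in either comparison, beside 14.5% of all genes with dox and 15.3% with dox_TCP. The arrays of replicate 2 stood apart in these markers. Krt8, a keratin of trophoblast, was at 3.94 and 2.91 on the replicate 1 arrays of dox and dox_TCP, and at 0.56 and 0.21 on the replicate 2 arrays. Its Cy3 level in the reference was 13.2 and 13.5 (log2) on the replicate 1 arrays and 16.3 and 16.4 on the replicate 2 arrays, and over the 9 trophoblast markers tested the reference of replicate 2 was higher by a median of 1.45. The part of this difference between the references in the values below was not tested, and each array's value is therefore given. Of 10 feeder fibroblast markers, 2 were called lower with dox and 1 with dox_TCP, beside 8.22% and 8.02% of all genes. In RNA from whole cultures, fewer cells of a type and less RNA per cell cannot be told apart.

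With dox, 8 of the 78 members tested were called against the reference by limma at an adjusted p under 0.05, 5 higher and 3 lower. In the same comparison 14.5% of all genes were called, 6.27% higher and 8.22% lower, so the members' count lies near the background. The median member was at -0.05 (log2) beside -0.001 for all genes, 35 of 78 members were above 0 beside 49.9% of all genes, and 64 of 78 members lay within 0.5 of 0. With dox_TCP, 11 members were called, 9 higher and 2 lower, beside 15.3% of all genes (7.26% higher and 8.02% lower). Their median was 0.14 beside 0.03 for all genes, and 54 of 78 were above 0 beside 55.1% of all genes. At an unadjusted p under 0.05 there were 25 members with dox (32.7% of all genes) and 33 with dox_TCP (33.1% of all genes). The comparisons share the reference RNA, so their values are set side by side and not counted as independent.

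These counts depended on the dye normalization; the cause was not tested. With each array centred on its median in place of loess, the member median was 0.70 with dox and 0.74 with dox_TCP. Then 43 and 44 members were called higher, against 1 lower in each. Of all 21590 genes, 4887 and 3997 were called higher and 1144 and 1109 lower. That setting also moved the median of all genes to 0.18 and raised the share of calls that were higher from 43.3% to 81.0% with dox and from 47.5% to 78.3% with dox_TCP. Under the scanner's own log ratio, which includes a lowess step, the member medians were -0.05 and 0.12, with 4 and 5 members called. Of all 21590 genes, 3294 and 3443 were called there. With the local backgrounds used as read, limma called 0 genes of any kind in either comparison. At an unadjusted p under 0.05 there were then 19 members and 1902 of 21590 genes with dox. With dox_TCP there were 15 members and 1968 genes. Directions below are those after loess. In the comparison where it was called, each called member kept its sign under every setting that was run. Each also lost its call under some of the 12 settings, from 3 (Cox8c with dox, among others) to 7 (Ndufb5 with dox). Settings that leave out an array of the other group cannot change the fitted value, so the sign was fixed there.

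Nuclear control of these genes is known to run through NRF1, the ETS factor GABPA, YY1 and the oestrogen-related receptors (ERR), so the letters of their motifs were looked for in the members' promoters. RefSeq promoters (GRCm38.p6, 250 bases before to 50 after the first listed start) were matched for 66 of 79 members, and those not matched include Atp5a1, Cox6a2, Cox6c, Cox8c, Cyc1, Ndufa2, Ndufb9, Ndufs1, Sdhc, Uqcrb, Uqcrc2 and Uqcrq. The NRF1 consensus, on either strand, was in 24.2% of member promoters and 4.78% of all 27025, the ETS letters CCGGAAG in 22.7% and 9.12%, the YY1 letters AANATGGCG in 12.1% and 2.51%, and the ERR letters TNAAGGTCA in 4.55% and 1.26%. From 100 bases before to 50 after the start the shares were 19.7% and 3.65% for NRF1 and 19.7% and 6.89% for ETS. Matches of different motifs may overlap, and a match is a description of letters, not of binding.

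The 150 bases before the start are shown for 4 called members that differ in direction and motifs: Ndufb4 (chr16:37654369-37654518, - strand) with 2 NRF1 matches and 1 ERR match, Ndufa6 (chr15:82354292-82354441, - strand), called higher in both comparisons, Cox7a1 (chr7:30184021-30184170, + strand), called higher with dox_TCP, and Atp5g1 (chr11:96075632-96075781, - strand), called lower in both. Capitals mark the motif matches, and the sequences run 5′ to 3′ on the gene's strand.
Ndufb4: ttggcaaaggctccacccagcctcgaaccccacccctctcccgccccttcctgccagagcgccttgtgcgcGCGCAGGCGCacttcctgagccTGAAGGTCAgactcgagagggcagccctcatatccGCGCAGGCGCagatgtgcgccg
Ndufa6: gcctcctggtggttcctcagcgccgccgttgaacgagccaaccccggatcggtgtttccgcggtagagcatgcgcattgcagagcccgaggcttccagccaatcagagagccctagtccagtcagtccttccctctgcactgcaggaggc
Cox7a1: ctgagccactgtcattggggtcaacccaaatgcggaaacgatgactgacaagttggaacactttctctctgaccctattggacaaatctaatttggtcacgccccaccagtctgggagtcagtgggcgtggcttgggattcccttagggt
Atp5g1: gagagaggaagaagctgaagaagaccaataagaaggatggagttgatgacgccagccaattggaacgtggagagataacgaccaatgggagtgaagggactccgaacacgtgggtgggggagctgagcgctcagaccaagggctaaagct
In Ndufb4 the NRF1 letters begin 79 and 22 bases before the start, with the ERR letters at 57 between them. The other 3 windows hold none of the 4 motifs, which says only that these letters are not in them. Ndufa6 holds the NRF1 letters elsewhere in its 300-base window.

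Complex I takes electrons from NADH, and its core subunits carry the flavin and the iron-sulfur clusters. Of the 7 core subunits on the array, 1 was called, and of the 28 supernumerary subunits, which surround the core, 2 were called with dox. Of all genes, 14.5% were called with dox. Ndufv2, a core subunit with an iron-sulfur cluster, was at 0.62 and 0.52 on the dox arrays and 0.60 and 0.40 on the dox_TCP arrays. It rose 1.48-fold with dox (log2 0.57 ± 0.09 SE, limma adjusted p = 0.0393) and 1.41-fold with dox_TCP (adjusted p = 0.0487). Ndufa6, a small supernumerary subunit of the matrix arm, was at 0.49 and 0.55 with dox and 0.77 and 0.76 with dox_TCP. It was high on every array, and both dox_TCP values lay above both dox values. The fits gave a 1.44-fold rise with dox (limma adjusted p = 0.0328) and a 1.70-fold rise with dox_TCP (adjusted p = 0.0205).

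A further 3 supernumerary subunits were called higher with dox_TCP alone, and their dox values lay on the same side of 0. Ndufa3 was at 0.38 and 0.41 with dox and 0.66 and 0.59 with dox_TCP (1.54-fold, limma adjusted p = 0.0258). Ndufb4, a membrane-arm subunit, was at 0.28 and 0.32 with dox and 0.62 and 0.54 with dox_TCP (1.49-fold, limma adjusted p = 0.0284). Ndufa13, also known as Grim19 for a role in cell death, was at 0.15 and 0.23 with dox and 0.43 and 0.54 with dox_TCP (1.40-fold, limma adjusted p = 0.0415). In all 3 the dox_TCP arrays lay above the dox arrays without overlap, but no difference between the groups was called, as given below. Ndufb5, a membrane-arm subunit, was the complex I member that fell with dox, with -0.49 and -0.68 on the dox arrays and -0.27 and -0.47 on the dox_TCP arrays. It fell with dox by limma (log2 -0.58 ± 0.10 SE, limma adjusted p = 0.0443), and its dox_TCP value was not called (adjusted p = 0.0987). Ndufb3 had the lowest fitted dox value of the complex at -0.72 but was not called, since its arrays read -0.43 and -1.01.

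**Figure D1:**
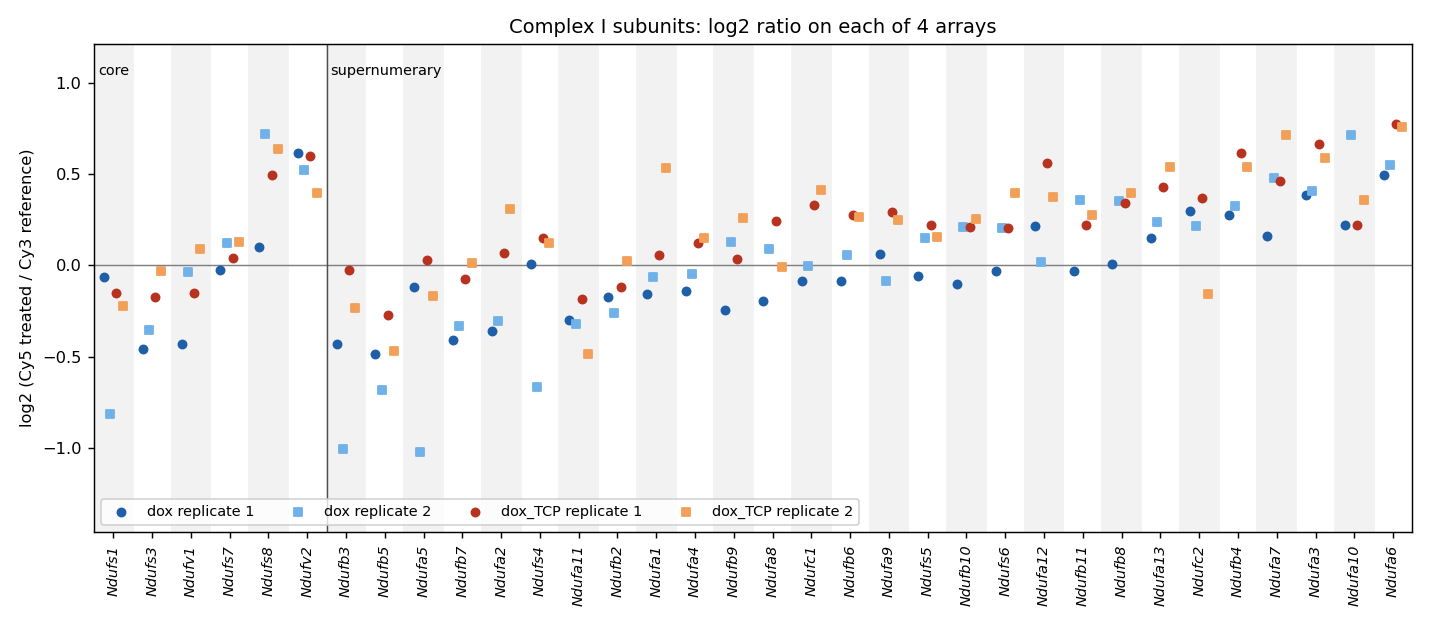
Log2 ratio of treated (Cy5) over reference (Cy3) RNA for 34 of the 35 Nduf genes counted in complex I, with 1 point for each of the 4 arrays (circles for replicate 1, squares for replicate 2), core subunits on the left and genes ordered by their dox mean. Ndufa6 and Ndufv2 lie above 0 on all 4 arrays and Ndufb5 below 0 on all 4, after loess; under median centring the fitted dox value of Ndufb5 was -0.02.

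Complex II, succinate dehydrogenase, is also an enzyme of the citric acid cycle and has 4 subunits, all nuclear. None was called in either comparison by limma, with 1 of 4 at an unadjusted p under 0.05 in each (32.7% and 33.1% of all genes). Sdhb, the iron-sulfur subunit, was highest, at 0.33 and 0.74 with dox and 0.69 and 0.46 with dox_TCP, all above 0. Sdha, the flavoprotein, was at 0.00 and 0.40 with dox and -0.11 and -0.22 with dox_TCP. A dimmer Sdha probe was above 0 on all 4 arrays, at 0.44 and 0.39 with dox and 0.44 and 0.10 with dox_TCP. The membrane anchors Sdhc and Sdhd were at 0.11 and 0.66, and at -0.14 and -0.06, with dox, and at 0.27 and 0.02, and -0.13 and -0.42, with dox_TCP. The dox and dox_TCP ranges overlapped for Sdhb, Sdhc and Sdhd.

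Complex III passes electrons from ubiquinol to cytochrome c, and none of its 8 members was called by limma in either comparison. In each, 3 had an unadjusted p under 0.05, beside 32.7% of all genes with dox and 33.1% with dox_TCP. Uqcrc2, a core protein of the matrix side, was highest at 0.43 and 0.31 with dox and 0.34 and 0.38 with dox_TCP. The hinge protein Uqcrh was below 0 on all 4 arrays, at -0.34 and -0.50 with dox and -0.32 and -0.35 with dox_TCP (limma adjusted p = 0.0565 and 0.0818). Cyc1, which carries the haem that hands electrons to cytochrome c, was at -0.41 and 0.18 with dox and -0.23 and -0.24 with dox_TCP. Uqcrb, a ubiquinone-binding subunit, read -0.22 and -1.19 with dox and 0.01 and 0.15 with dox_TCP, and its fitted dox value of -0.70 rests on the second dox array. Cycs, the soluble carrier between complexes III and IV that also acts in apoptosis, was at 0.21 and -0.55 with dox and 0.04 and -0.10 with dox_TCP, on both sides of 0 in each group.

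Complex IV reduces oxygen to water and holds the members with tissue-restricted isoforms. Cox8c, an isoform of the small subunit 8 known from testis, was the lowest of all members, at -1.59 and -1.25 with dox and -1.22 and -0.92 with dox_TCP. It fell 2.67-fold with dox (log2 -1.42 ± 0.14 SE, limma adjusted p = 0.0203) and 2.10-fold with dox_TCP (log2 -1.07 ± 0.14, adjusted p = 0.0269). Its probe lies at chr12:100395762-100395820 on the + strand of mm7, the build of the files, and it was well above background on every array in both channels. It was dim, however, at a mean log2 level of 7.53 beside a median of 8.65 for all genes tested. It is also the single member called lower under median centring, and the scanner's log ratios were larger, from -2.40 to -1.75. With local backgrounds as read, Cox8c was at -0.60 with dox and -0.14 with dox_TCP, not called, and without either dox_TCP array it was not called in either comparison. Cox8a, the isoform of most tissues, read -0.25 and -0.06 with dox and 0.31 and 0.42 with dox_TCP, and was called in neither comparison.

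Cox7a1, the heart and skeletal muscle isoform of subunit 7a, gave the highest called value with TCP. It was at -0.13 and 0.37 with dox and at 0.97 and 1.14 with dox_TCP, so both dox_TCP arrays lay well above both dox arrays. Against the reference it rose 2.08-fold with dox_TCP (log2 1.05 ± 0.16 SE, limma adjusted p = 0.0324) and was at 0.12 ± 0.16 with dox (adjusted p = 0.663). Its reference level also differed between replicates, with Cy3 at 11.3 and 11.4 (log2) on the replicate 1 arrays and 12.1 and 11.7 on the replicate 2 arrays. The other muscle isoforms gave no call: Cox6a2 was at -0.25 and -0.01 with dox and -0.09 and 0.04 with dox_TCP, and Cox8b was not tested, being above background in Cy5 on 1 of 2 dox arrays and on no dox_TCP array. Of 10 striated muscle markers measured beside them, 2 were called higher (Tnni2 and Mb) and 1 lower (Myh7) in each comparison. Of all genes, 14.5% were called with dox and 15.3% with dox_TCP. The master regulators Myod1 and Myog were at 0.13 and 0.14 with dox_TCP and not called. The median log2 Cy5 level of the 10 was 8.56 and 9.02 on the dox arrays and 8.81 and 8.85 on the dox_TCP arrays. The part of muscle-type expression in the Cox7a1 value was not tested. Cox6b2, the testis isoform of subunit 6b, was at -0.25 and 0.07 with dox and 0.01 and 0.24 with dox_TCP, not called.

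Cox7a2l, a relative of subunit 7a that joins complexes III and IV into supercomplexes, was at 0.49 and 0.90 with dox and 0.69 and 0.62 with dox_TCP. It rose 1.62-fold with dox (log2 0.70 ± 0.13 SE, limma adjusted p = 0.0486) and lay at 0.66 with dox_TCP, just outside the threshold (adjusted p = 0.0529). Cox6a1, the common isoform of subunit 6a, had the highest fitted dox value of all members, 0.77 ± 0.19, from arrays at 0.53 and 1.00, and read 0.70 and 1.20 with dox_TCP. It was high on all 4 arrays but varied between replicates and was not called (limma adjusted p = 0.0816 and 0.0535).

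Complex V consists of the catalytic F1 head, the c ring in the membrane and the stalks that join them. Atp5b, the catalytic beta subunit, was at 0.54 and 0.61 with dox and 0.51 and 0.50 with dox_TCP, an even rise on the 4 arrays. The fits gave 1.49-fold with dox (limma adjusted p = 0.0293) and 1.42-fold with dox_TCP (adjusted p = 0.0339), but 2 dimmer probes of the gene read between -0.07 and 0.58, and with the mean of the 3 probes it was not called. Atp5c1, the central stalk subunit gamma, was at 0.36 and 0.34 with dox and 0.47 and 0.46 with dox_TCP, called with dox_TCP (1.38-fold, limma adjusted p = 0.0374) but not with dox (adjusted p = 0.0625). Atp5l, a small membrane subunit (g), was at 0.59 and 0.80 with dox and 0.53 and 0.57 with dox_TCP. It rose 1.62-fold with dox (limma adjusted p = 0.0290) and 1.46-fold with dox_TCP (adjusted p = 0.0398).

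The genes of the c ring gave different values. Atp5g1, Atp5g2 and Atp5g3 encode the same mature c subunit behind different import peptides. Atp5g1 was at -0.91 and -0.70 with dox and -0.61 and -0.71 with dox_TCP, low on all 4 arrays. It fell with dox (log2 -0.81 ± 0.10 SE, limma adjusted p = 0.0245) and 1.58-fold with dox_TCP (log2 -0.66 ± 0.10, adjusted p = 0.0316). Its probe lies at chr11:96182649-96182708 on the - strand (mm7). Under median centring its values shrank to -0.07 and -0.08, not called. Atp5g2 was near 0, from -0.24 to -0.06 over the 4 arrays. Atp5g3 read 0.17 and 0.06 with dox and -0.24 and -0.60 with dox_TCP, and was called in neither comparison.

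**Figure D2:**
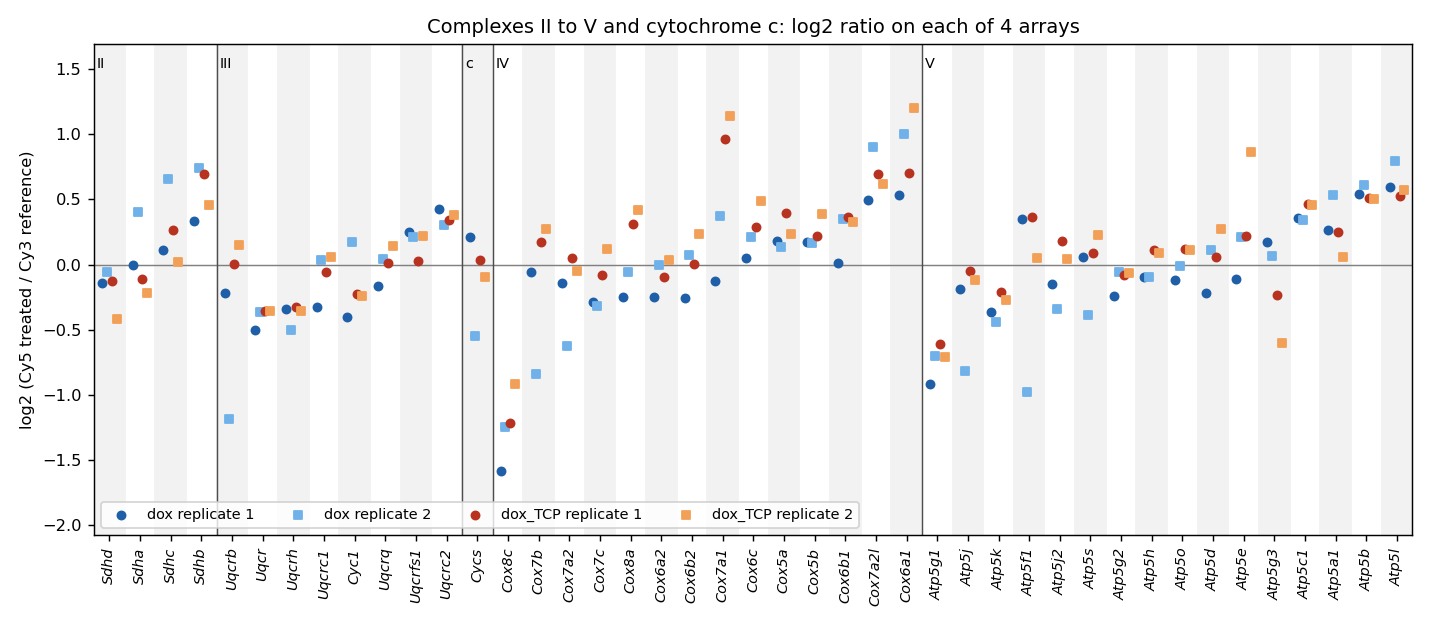
Log2 ratio of treated (Cy5) over reference (Cy3) RNA for the 43 members of complexes II to V and Cycs (panel c) that were tested, with 1 point for each of the 4 arrays (circles for replicate 1, squares for replicate 2), ordered by the dox mean within a complex. Cox8c and Atp5g1 lie below 0 on all 4 arrays after loess, Cox7a1 is near 1 on the dox_TCP arrays alone, and several genes have a single low value on the second dox array; under median centring the fitted dox value of Atp5g1 was -0.07.

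The 2 dox arrays did not match equally well over all members. Between them, 13 members differed by more than 0.5 (16.7%, beside 24.9% of all genes), 9 with the lower value on the second array and 4 with the higher. Atp5f1, a subunit of the peripheral stalk, lay furthest apart, at 0.35 and -0.98, and Ndufa5, of complex I, read -0.12 and -1.02. Cox7b read -0.06 and -0.84, Atp5j -0.19 and -0.82 and the core subunit Ndufs1 -0.07 and -0.82. On the dox_TCP arrays these 5 genes read between -0.22 (Ndufs1) and 0.36 (Atp5f1). In the Cy5 channel, Atp5f1 was at 15.9 (log2) on the first dox array, 15.9 and 15.7 on the dox_TCP arrays and 15.0 on the second dox array. The reference level of Atp5f1 was highest on the same array, and the part of this in the ratio was not tested. Between the dox_TCP arrays, 2 members differed by more than 0.5 (2.56%, beside 10.4% of all genes): Atp5e at 0.22 and 0.87, and Ndufc2 at 0.37 and -0.16. Leaving out the first dox array put the member median with dox at 0.06, beside 0.008 for all genes. Leaving out the second put it at -0.09, beside 0.001. Which members were called with dox also changed when 1 dox array was left out. Without either dox_TCP array, no member was called in either comparison against the reference. A group cut to 1 array takes its spread from the pair of the other group, so these fits rest on the spread of the dox pair, and those without a dox array on the spread of the dox_TCP pair.

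**Figure D3:**
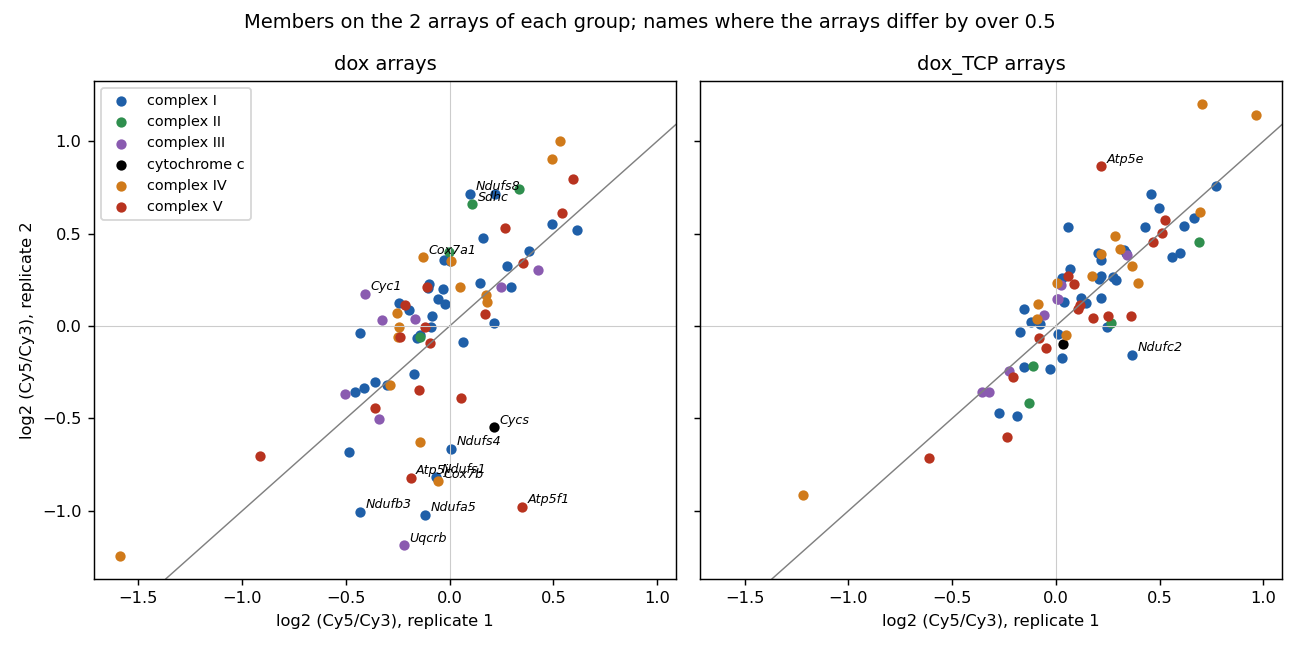
Log2 ratio of each member on replicate 1 (x axis) against replicate 2 (y axis), for the dox arrays (left) and the dox_TCP arrays (right), coloured by complex, with the diagonal in grey. Names mark the 13 and 2 members whose arrays differ by more than 0.5; of the 13, 9 lie below the diagonal.

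The direct question of what TCP added was the difference between dox_TCP and dox, in which the reference cancels if it is the same RNA. Limma called 0 members and 0 of all genes (0.00%), and 6 members had an unadjusted p under 0.05 beside 4.39% of all genes. Yet the fitted difference lay above 0 for 62 of 78 members, beside 59.3% of all genes, with a median of 0.19 beside 0.04. Both dox_TCP arrays lay above both dox arrays in 39 members (50%, beside 20.1% of all genes) and below them in 5 (12.8% of all genes). The first dox and first dox_TCP arrays share a slide, and within it 67 of 78 members were higher with dox_TCP, with a median of 0.21. On that slide 55.4% of all genes were higher, with a median of 0.03. The replicate 2 arrays, on different slides and scan days, gave 57 of 78 members and a median of 0.17. Over all genes they gave 55.8% and a median of 0.04. The fitted member median was above 0 under every setting that was run. It was 0.12 without the first dox array, 0.13 with the scanner's log ratio, 0.08 with backgrounds as read or with Cy5 levels alone, and 0.04 under median centring. In the same order, the medians of all genes were 0.03, 0.02, 0.03, 0.04 and 0.006. With backgrounds as read, 46 of 78 members and 12849 of 21590 genes lay above 0, so the members did not stand out there. Under median centring 48 members and 11015 genes did.

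No single member passed the adjustment over all genes, whose median SE for this difference was 0.16. Cox7a1 had the smallest p, with a difference of 0.93 ± 0.22 SE (1.91-fold; limma adjusted p = 0.996), and 1.09 within the shared slide. Cox8a followed with 0.52, from 0.56 on the shared slide and 0.48 on the replicate 2 arrays, and Ndufa2, a complex I subunit with a thioredoxin fold, with 0.52, from 0.42 and 0.61. Ndufc1 gave 0.42 and 0.41 in the pairs, and Ndufb7 0.33 and 0.35. In these 5 genes the groups did not overlap. In the opposite direction, Atp5g3 was lower with dox_TCP by 0.41 on the shared slide and 0.67 on the replicate 2 arrays, and Sdha by 0.11 and 0.62. Atp5a1, the alpha subunit of the F1 head, differed by -0.25 and Sdhd by -0.17 in the fit. Their differences were -0.02 and 0.02 on the shared slide, and -0.48 and -0.36 on the replicate 2 arrays. On the shared slide a dimmer probe of Sdha read 0.44 with dox and 0.44 with dox_TCP, and one of Atp5a1 -0.20 and -0.01. On the replicate 2 arrays these probes read 0.39 and 0.10, and 0.13 and -0.11, lower with dox_TCP as on the brighter probes.

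By complex, the median difference was 0.23 in complex I (30 of 35 above 0), 0.24 in complex IV (13 of 14), 0.17 in complex V (12 of 16) and 0.08 in complex III (5 of 8). Complex II was at -0.21, with 3 of its 4 subunits below 0. On the shared slide, however, 3 of 4 complex II subunits were above 0, so its sign rests on the replicate 2 arrays. Within complex I the supernumerary subunits were at a median of 0.24 and the core at 0.16, the latter turning to -0.02 under median centring. In complex V the 4 subunits of the peripheral stalk (Atp5f1, Atp5h, Atp5j and Atp5o) were all above 0, with a median of 0.31 that turned to -0.09 with backgrounds as read. Under that setting complex III (-0.11) and complex V (-0.09) also turned, and under median centring complex III did (-0.06). The differences between complexes were not tested.

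**Figure D4:**
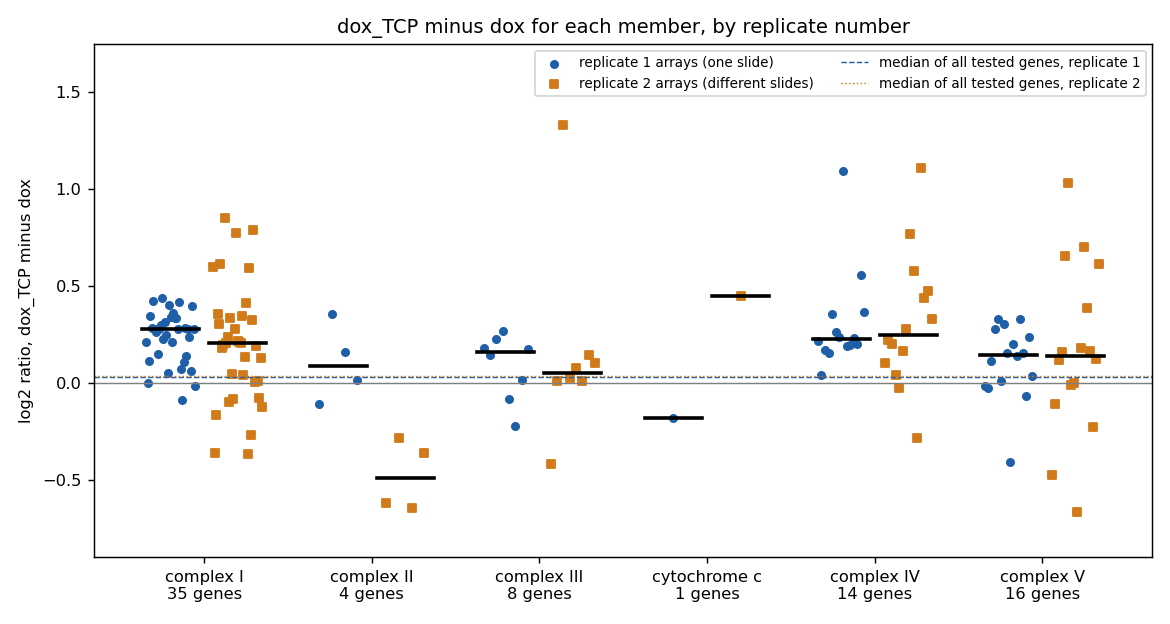
Log2 ratio with dox_TCP minus that with dox for each member, by complex; blue circles are the replicate 1 arrays, which share a slide, and orange squares the replicate 2 arrays, with black lines at the medians and dashed or dotted lines at the median of all genes. Complexes I and IV lie mostly above the line for all genes in both pairs, by a median of 0.28 and 0.22 (blue) and 0.21 and 0.25 (orange) from 0, while complex II changes side between the pairs; under median centring the fitted medians of complexes I and IV were 0.07 and 0.09.

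The Cy3 channel shows how steady the members were in the reference itself. Its log2 levels correlated at 0.999 over all genes between the 2 arrays of replicate 1, and at 0.981 to 0.989 between other pairs. Members were higher in the reference of replicate 2 than of replicate 1 by a median of 0.12, with 60 of 78 above 0. For all genes the median was 0.07, with 12802 of 21590 above 0. The gap was 0.14 within the dox arrays and 0.08 within the dox_TCP arrays. Cox7a1 (0.55), Atp5k (0.55), Ndufb5 (0.51), Ndufa11 (0.47) and Ndufa3 (0.45) were highest in the reference of replicate 2. Lowest were Cox6a2 (-0.55, on a dim probe), Ndufa10 (-0.46), Cyc1 (-0.44), Cox6b2 (-0.40) and Ndufv1 (-0.38). These gaps are of the size of many member ratios, and as no reference RNA was compared as a replicate they carry no test.

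Where a member had several tested probes (21 genes), 8 had probes of opposite sign with dox, and in 2 of these the dimmer probe was called against the brighter one. For Ndufb8 the bright probe gave 0.18 with dox and a dimmer one, which the array assigns to another transcript, gave -1.09 (limma adjusted p = 0.0262). For Atp5s, an ATP synthase-related factor that is no core subunit, the probes gave -0.17 and 0.85 (limma adjusted p = 0.0246 for the second). Cycs, with 3 probes, was lower on its 2 dimmer ones, at -0.82 and -0.84, with no call.

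Of 23 regulators of mitochondrial biogenesis, among them factors of nuclear promoters and proteins of mitochondrial DNA, 4 were called with dox, 1 higher and 3 lower, and 5 with dox_TCP, 1 higher and 4 lower. Of all genes, 14.5% were called with dox and 15.3% with dox_TCP. Ppargc1b, a co-activator of mitochondrial genes, was at 0.80 and 0.99 with dox and 0.64 and 0.72 with dox_TCP, and rose in both (limma adjusted p = 0.0210 and 0.0283). Esrrb, an oestrogen-related receptor that is also a pluripotency factor, fell furthest, to -2.61 and -2.82 with dox and -2.36 and -2.62 with dox_TCP. Lin28, an RNA-binding protein of stem cells, and Peo1, the mitochondrial DNA helicase, fell in both, and Myc fell with dox_TCP (log2 -1.70, limma adjusted p = 0.0415), with arrays at 0.42 and -0.53 with dox and -1.43 and -1.97 with dox_TCP. Nrf1, Gabpa, Esrra, Yy1, Tfam and Ppargc1a were not called. Gabpa and Tfam again read much lower on the second dox array, at -0.64 and -2.08, and -0.25 and -1.05.

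Other mitochondrial genes were counted in the same way. Among 25 genes of the citric acid cycle and pyruvate entry, 6 were called higher with dox and 0 lower, with a median of 0.24, and 4 higher and 0 lower with dox_TCP, beside 6.27% and 7.26% of all genes called higher. Under median centring 16 and 14 of the 25 were called higher, with medians of 0.86 and 0.77, beside 4887 and 3997 of 21590 genes. Idh2, a mitochondrial isocitrate dehydrogenase, was at 0.95 and 1.18 with dox and 1.62 and 1.36 with dox_TCP, and Ogdh, of the 2-oxoglutarate dehydrogenase complex, at 0.85 and 1.18 with dox and 0.69 and 0.51 with dox_TCP. Pdk4, a kinase that inhibits pyruvate dehydrogenase, was called with dox_TCP (log2 2.23, limma adjusted p = 0.0209), at 2.17 and 2.30 beside 0.37 and 1.19 with dox. Of 75 mitochondrial ribosomal proteins, 12 were called lower and 1 higher with dox, and 12 lower and 3 higher with dox_TCP. Of all genes, 8.22% were called lower with dox and 8.02% with dox_TCP. The list medians were -0.26 and -0.18, turning to 0.33 and 0.28 under median centring. Mrpl20 was lowest of those called, at -1.10 and -1.20 with dox and -1.28 and -1.26 with dox_TCP.

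Of the subunits that the name rule leaves out, Cox4i1, the common isoform of complex IV subunit 4, was at 0.24 and 0.41 with dox and 0.77 and 0.61 with dox_TCP and was called with dox_TCP (limma adjusted p = 0.0298). Atpif1, the inhibitor of ATP synthase run in reverse, was at 0.25 and 0.24 with dox and 0.53 and 0.56 with dox_TCP (limma adjusted p = 0.0291 for dox_TCP), and Etfdh, which feeds electrons from fat oxidation to ubiquinone, was called higher in both. The muscle and lung isoform Cox4i2 stayed between 0.03 and 0.08 on the 4 arrays. Of 18 assembly factors 0 were called with dox (14.5% of all genes), with 7 at an unadjusted p under 0.05 (32.7% of all genes). With dox_TCP, Nubpl, which builds iron-sulfur clusters into complex I, rose and Atpaf1, a chaperone of the F1 head, fell. None of 8 carriers and channels, among them the ADP/ATP carriers Slc25a4 and Slc25a5, was called by limma. In each comparison 2 had an unadjusted p under 0.05, beside 32.7% of all genes with dox and 33.1% with dox_TCP. The differences between these lists and the members were not tested.

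**Figure D5:**
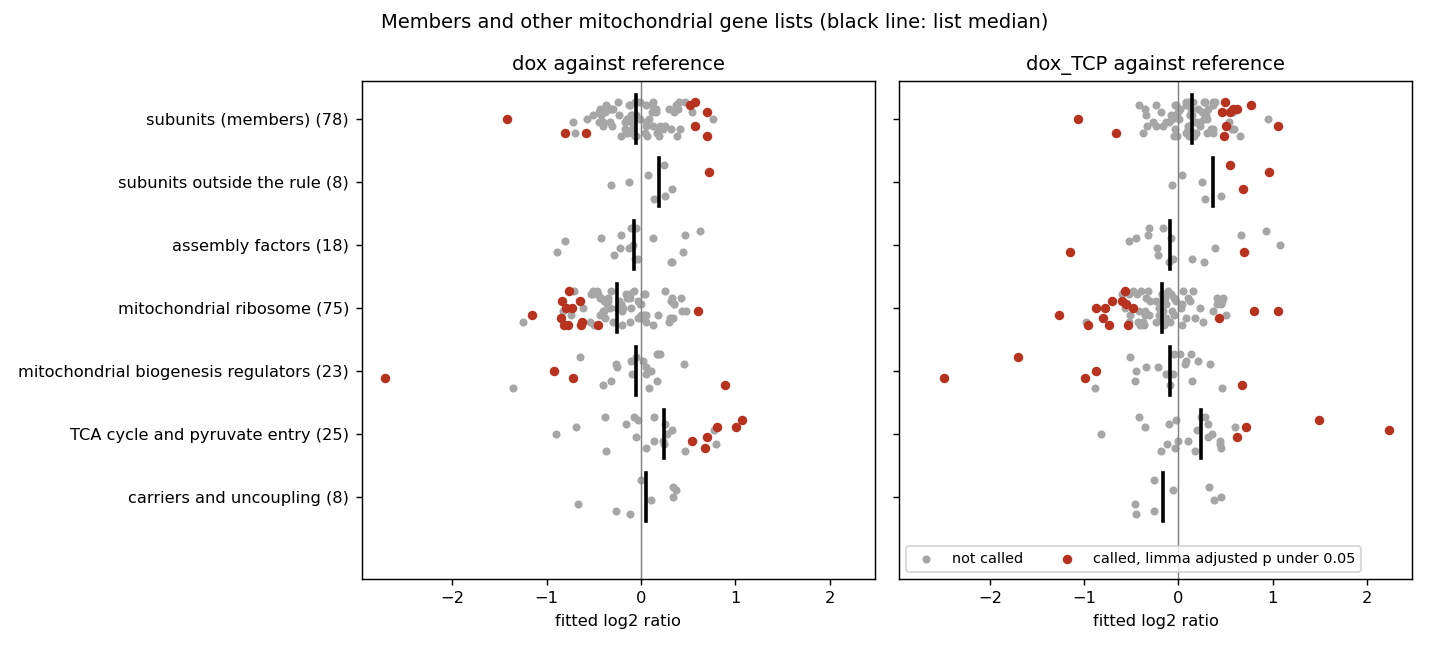
Fitted log2 ratio against the reference for the 78 members and 6 other lists of mitochondrial genes (rows, number of genes in brackets), with dox (left) and dox_TCP (right); red points were called by limma and black lines are list medians. The members' medians of -0.05 and 0.14 lie between those of the citric acid cycle list (0.24 and 0.24) and the mitochondrial ribosome (-0.26 and -0.18) after loess; under median centring all 3 medians lie above 0 in both panels.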

How the data were processed

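The 4 Agilent 2-colour arrays (design 014868, annotated on mm7, per the file headers) were read as deposited scanner files. Spot and background intensities are as scanned with Agilent Feature Extraction 10.1.1.1, per the submitters' processing notes. The deposited log10 ratios of Cy5 over Cy3 were background-subtracted and dye-normalized (linear and lowess), per the file headers, and the series value table matched them within 0.005.

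Here intensities were corrected by normexp (offset 50, local backgrounds above 2 times the channel median set to it), normalized by loess (limma 3.58.1, R 4.3.3) and averaged per probe. Probes were tested where the scanner marked them as clearly brighter than background in Cy5 on both dox or both dox_TCP arrays, or in Cy3 on all 4, and each gene was represented by its brightest such probe. Group means were fitted on all 4 arrays with eBayes and Benjamini-Hochberg adjustment over 21590 genes at 0.05. With 2 arrays a group, their number limits the precision. In simulated data of the same size, the fit recovered 51% of genes changed by 1 (log2) and 89% of those changed by 2 with dox, 56% and 87% with dox_TCP, and 1% and 72% for dox_TCP against dox. The simulated arrays were independent, with the same spread of a gene in both groups and 100 genes changed by each size. In the data 3128 genes were called with dox, and the 2 groups differed in spread. The rates therefore describe the simulation and not the power of these arrays. Channel levels are after Aquantile scaling. Of 79 members, 77 were matched to RefSeq by accession and 2 by symbol. 1 member is counted in the totals but is not reported here. The members and lists were chosen with earlier results of these data known.

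The genes named were, per comparison, up to 10 called members each way, or where none was called the 5 each way with the smallest p; the extremes of each complex with dox; complex II, Cyc1, Cycs and tissue-restricted isoforms; the 5 largest reference gaps each way; and up to 5 called genes of each other list. Other genes were named after their values were seen.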

Additional observations from a re-analysis of the deposited data

How the results depend on the processing

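The number of members called was 8 with dox and 11 with dox_TCP against the reference. With local backgrounds as read it was 0 and 0, under median centring 44 and 45, and with the scanner's log ratio 4 and 5. Of all 21590 genes, 3128 and 3299 were called in the main fit and 0 and 0 with backgrounds as read. Median centring gave 6031 and 5106 genes, and the scanner's log ratio 3294 and 3443. Leaving out 1 array at a time gave 0 to 15 with dox and 0 to 17 with dox_TCP. The counts of 0 came without either dox_TCP array, where limma called no gene in either comparison. The dox median of -0.05 became 0.12 with backgrounds as read and 0.70 under median centring, and ran from -0.0861 to 0.0604 without 1 array. The dox_TCP median of 0.14 became 0.13, 0.74 and 0.12 with backgrounds as read, median centring and the scanner's ratio, and ran from 0.13 to 0.15 without 1 array. The difference between dox_TCP and dox kept a median above 0, at 0.0838 with Cy5 levels alone, 0.0813 with backgrounds as read, 0.0416 under median centring, 0.13 with the scanner's ratio and 0.12 to 0.24 without 1 array, and 0 members were called in it under any setting. Over all genes the median of that difference was 0.04 with Cy5 levels alone, 0.03 with backgrounds as read and 0.006 under median centring. The gap between references (reference replicate 2 minus replicate 1, member median) of 0.12 became 0.19 with backgrounds as read, 0.0520 under median centring and 0.0236 with the scanner's green signal. Under median centring 73 of 78 members were above 0 with dox, against 35 after loess, and among the members named Cycs and Ndufc1 turned from below 0 to called values of 0.60 and 0.69. The causes were not tested.

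With the replicate number as a block, 10 members were called with dox, 16 with dox_TCP and 0 in their difference. Over all 21590 genes the counts rose as well, to 4873 with dox and 5131 with dox_TCP, with 0 in the difference. Deviations of same-numbered arrays correlated at 0.47, but nothing in the labels says what a number shares. The precision is limited by 2 arrays a group and by a reference counted as 1 sample.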
